A study of Homo sapiens with 12 samples.

Results

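The 8 genes OPA1, MFN1, MFN2, DNM1L, FIS1, YME1L1, PINK1 and IMMT, which encode proteins of mitochondrial fusion, fission and cristae, were followed in human cells that had lost their mitochondrial DNA. They were taken by name, and all probe sets that the platform annotation gives to one of them, under its present or an older symbol, were read. That made 26 probe sets, for 8 of the 11963 distinct genes that the array reads by probe sets of 1 gene, and 19 of the 26 were bright enough to be tested in both cell lines. RNA was hybridised to 12 HG-U133A arrays, 3 in each of 4 groups: ρ° and ρ+ cells of A549, and ρ° and ρ+ cells of 143BTK−. A549 is an epithelial line from a lung adenocarcinoma, and 143BTK− is an osteosarcoma line without thymidine kinase. The ρ° cells were depleted of mtDNA by 3 weeks in 50 ng/ml ethidium bromide and kept as a mixed population with no selection of clones, and the ρ+ cells are their parental lines, which still hold mtDNA. In a given line, mtDNA loss and exposure to ethidium bromide cannot be told apart. The medium contained 10% serum, 1 mM pyruvate and 50 µg/ml uridine.

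Mitochondria fuse and divide all the time, and dynamin-related GTPases do the mechanical work. MFN1 and MFN2 join outer membranes, OPA1 joins inner membranes and holds cristae junctions tight, and DNM1L, known as DRP1, is recruited to the outer membrane to cut the organelle. The inner membrane protease YME1L1 cuts OPA1 into short forms, the kinase PINK1 marks damaged mitochondria for removal by autophagy, and IMMT, also called mitofilin or MIC60, is the core of the MICOS complex at cristae junctions.

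The values are signals computed by Microarray Suite 5.0 (MAS5), each summarising the short probes of a probe set, after quantile normalization within a line. They have no absolute unit, and signals cannot be set against each other between probe sets or between the lines. Replicates A, B and C of a group correlated with each other at 0.899 to 0.964. The lowest values were those of the 143BTK− ρ° B array with its replicates (0.913 and 0.899). The ρ+ C array of each line came next (0.915 to 0.929, where ρ+ A and B reached 0.952 in A549 and 0.964 in 143BTK−). Some of the results that rest on one of these arrays are given without it too. Changes are log2 differences of ρ° minus ρ+ from limma, with p adjusted by Benjamini-Hochberg over all probe sets kept in the fit, and a change was called at an adjusted p under 0.05. Where a gene had several probe sets, the one with the highest mean log2 signal represented it in counts. The epithelial markers that define A549 were lower in its ρ° cells: of the 5 listed, all 4 that could be tested fell, their summed signal was 3691.4 to 6963.3 on ρ° arrays and 10750.0 to 13155.3 on ρ+ arrays, and KRT19 averaged 3.53 in ρ° and 408.7 in ρ+ cells. EPCAM was at 4.77 in ρ° and 8.60 in ρ+ cells of A549, and the 5 mesenchymal markers summed to 4277.9 to 4893.6 on ρ° arrays and 2627.2 to 4815.9 on ρ+ arrays, a sum made up mostly of VIM (mean 4465 in ρ° and 3303 in ρ+). SPARC averaged 2.97 in A549 ρ° and 29.5 in ρ+ cells, CDH2 averaged 21.0 in ρ° and 34.1 in ρ+ cells, and none of the 4 mesenchymal markers tested in A549 was called. In 143BTK− no marker of either list was called, and the mesenchymal sum was 7072.4 to 8149.0 on ρ° arrays and 6327.8 to 7764.1 on ρ+ arrays. VIM averaged 6710 there in ρ° and 6366 in ρ+ cells, and CDH2 230 in ρ° and 136 in ρ+ cells, with no overlap. SPARC averaged 734 in ρ° and 595 in ρ+ cells, and COL1A1 87.8 and 87.0. COL1A2 was dim and lower in ρ° cells (9.1 in ρ° and 15.2 in ρ+). Of the epithelial markers, CDH1 (0.633 in ρ° and 0.867 in ρ+) and KRT19 (2.0 in ρ° and 0.70 in ρ+) were near 0 in 143BTK−. EPCAM averaged 35.7 in ρ° and 33.6 in ρ+ cells there, above its A549 signals, and KRT8 76.8 and 127.8. KRT18 averaged 3525 in ρ° and 4570 in ρ+ cells. The epithelial sum was 2955.0 to 5005.6 on ρ° and 4180.8 to 5134.1 on ρ+ arrays, and was made up mostly of KRT18. The part of these marker shifts in the values that follow was not tested.

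Of the 8 genes, 1 changed in A549 (MFN1, higher in ρ° cells), while 10.9% of all probe sets tested there were called in limma, so the count is near the background. None of the 8 was called in 143BTK−, where 0.0% of all probe sets tested were. None was called in the mean change of both lines, against 3.7% of 12139 probe sets, and none in the difference between the lines, against 1.95%. At an unadjusted p under 0.05 the counts were 1 of 8 genes in A549 (27.4% of all probe sets), 0 in 143BTK− (8.39%), 2 in the mean change (20.6%) and 1 in the difference (17.3%). The 2 were MFN1 and PINK1, and the 1 was MFN1 again. The median size of the log2 change, with the sign left out, was 0.15 for the 8 genes and 0.38 for all probe sets in A549, and 0.12 against 0.27 in 143BTK−. Over all 19 kept probe sets of the 8 genes, dimmer ones included, it was 0.22 in A549 and 0.24 in 143BTK−. The 95% interval of the change lay wholly within a factor of 2 either way for 7 of the 8 genes in A549 and 6 of 8 in 143BTK−, where 45.4% and 46.0% of all probe sets had such an interval. Among the 19 kept probe sets it did so for 13 (68.4%) in A549 and 12 (63.2%) in 143BTK−. The representatives are the brightest probe sets of their genes, and the wider set stands nearer to all probe sets.

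**Figure D1:**
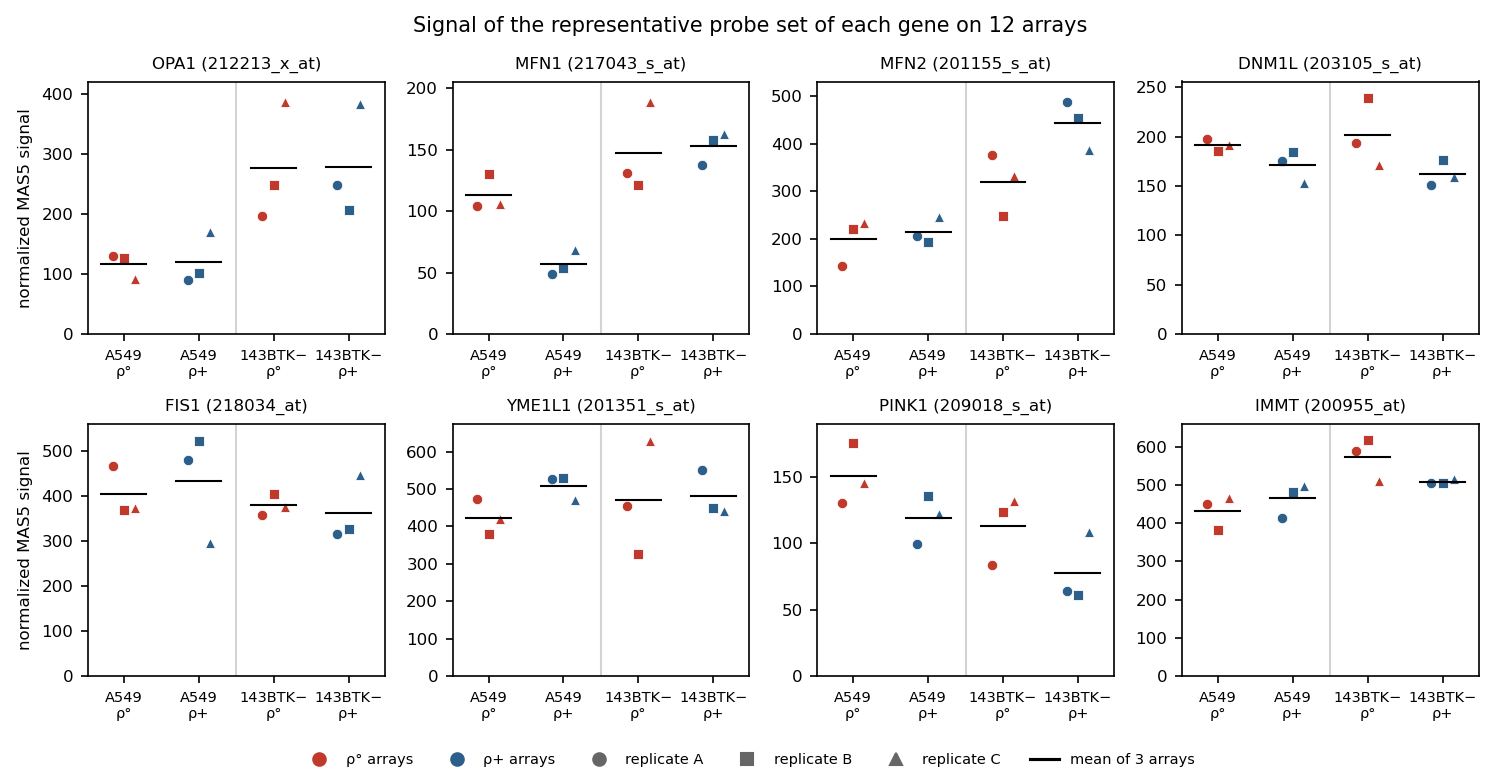
Normalized MAS5 signal (vertical axes, linear, each starting at 0) of the probe set that represents each of the 8 genes, on the 12 arrays. Points are single arrays (red ρ°, blue ρ+, with shapes for replicates A, B and C) and lines are means of 3 arrays. For MFN1 in A549 the ρ° arrays (103.7 to 130.4) lie above the ρ+ arrays (48.4 to 68.5), and for MFN2 in 143BTK− the ρ° arrays (247.7 to 376.8) lie below the ρ+ arrays (386.5 to 487.7).

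MFN1, the outer membrane fusion GTPase, lies at chr3:179347709-179394936 of GRCh38.p14. Its representative probe set, 217043_s_at, had signals of 103.7, 130.4 and 105.9 in A549 ρ° cells, against 48.4, 53.6 and 68.5 in A549 ρ+ cells. The lowest ρ° array was well above the highest ρ+ array. The mean signal was 113 ± 14.8 for ρ° and 56.8 ± 10.4 for ρ+ (SD over 3 arrays each), a log2 change of 1.00 (SE 0.24, 95% interval 0.47 to 1.54, limma adjusted p = 0.0270), which is 2.0-fold with an interval of 1.38 to 2.91. In 143BTK− the same probe set had 131.0, 121.5 and 188.5 in ρ° cells, against 137.5, 157.9 and 163.0 in ρ+ cells. These overlapped, with a log2 change of -0.08 (interval -0.66 to 0.50, adjusted p = 0.959). The change in A549 exceeded that in 143BTK− by 1.08 on the log2 scale (interval 0.35 to 1.82), and this difference did not pass in limma (adjusted p = 0.120), so MFN1 is not shown to respond differently in the lines.

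The call of MFN1 in A549 sat close to the threshold. It was lost when ρ° A (log2 change 1.06, limma adjusted p = 0.0827), ρ° B (0.90, 0.0982), ρ+ A (0.90, 0.0765) or ρ+ B (0.97, 0.0959) was left out, and kept without ρ° C (1.05, 0.0494) or ρ+ C (1.15, 0.0139). Kept probe sets of its chromosome had a median log2 change of 0.13 in A549, and after that median was taken off, MFN1 stood at 0.87 (adjusted p = 0.0521). With 64 added to every signal before log2 the change was 0.55 (adjusted p = 0.0234).

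The other MFN1 probe sets pointed the same way without passing. Probe set 207098_s_at read 62.7, 65.5 and 67.8 in A549 ρ° cells, against 50.4, 37.5 and 54.8 in ρ+ cells, with no overlap and a log2 change of 0.48 (interval -0.10 to 1.05, limma adjusted p = 0.267). Probe set 211801_x_at is of a type, marked by x_at in the name, that can bind other sequences as well. It read 86.7, 38.5 and 75.1 in A549 ρ° cells, against 51.8, 47.1 and 45.8 in ρ+ cells. There ρ° B was the lowest of the 6 arrays and the other ρ° arrays were the highest, and the log2 change was 0.39 (adjusted p = 0.484). In 143BTK− all 3 probe sets of MFN1 had log2 changes below 0, of -0.08, -0.24 and -0.43, and none passed.

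MFN2, the second mitofusin, also tethers mitochondria to the endoplasmic reticulum (chr1:11980444-12013508). In 143BTK− its representative probe set 201155_s_at had 376.8, 247.7 and 331.5 in ρ° cells, against 487.7, 453.9 and 386.5 in ρ+ cells. Every ρ° array was below every ρ+ array, yet the log2 change of -0.49 (SE 0.23, interval -1.02 to 0.04) did not pass in limma (adjusted p = 0.622). Without the ρ° B array, the lowest of the 6 and the one least like its replicates, it was -0.32 (limma adjusted p = 0.771). Kept probe sets of its chromosome, which also holds PINK1, had a median log2 change of -0.15 in 143BTK−. In A549 it had 142.0, 220.6 and 232.8 in ρ° cells, against 205.2, 193.4 and 246.6 in ρ+ cells. Here the arrays were mixed, with ρ° A the lowest, and the log2 change was -0.14 (interval -0.67 to 0.39, adjusted p = 0.748). Over both lines the mean change was -0.32 (interval -0.68 to 0.05, adjusted p = 0.311). The dimmer probe set 216205_s_at differed by 0.16 in A549 and -0.43 in 143BTK−, with groups that overlapped in both.

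The promoters of both mitofusins are shown since MFN1 was the gene that passed and MFN2 is its nearest relative. They are RefSeq sequence (GRCh38.p14), from 250 bases before the start of the gene to 50 bases after it, both on the plus strand, with capitals marking motif matches on either strand.
MFN1, chr3:179347459-179347758: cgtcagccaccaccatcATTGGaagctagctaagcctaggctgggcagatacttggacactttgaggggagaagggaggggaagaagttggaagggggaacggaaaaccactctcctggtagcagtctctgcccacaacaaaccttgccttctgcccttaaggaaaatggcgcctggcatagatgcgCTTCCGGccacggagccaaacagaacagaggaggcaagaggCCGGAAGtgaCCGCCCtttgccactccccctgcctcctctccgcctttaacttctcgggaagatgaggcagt
MFN2, chr1:11980194-11980493: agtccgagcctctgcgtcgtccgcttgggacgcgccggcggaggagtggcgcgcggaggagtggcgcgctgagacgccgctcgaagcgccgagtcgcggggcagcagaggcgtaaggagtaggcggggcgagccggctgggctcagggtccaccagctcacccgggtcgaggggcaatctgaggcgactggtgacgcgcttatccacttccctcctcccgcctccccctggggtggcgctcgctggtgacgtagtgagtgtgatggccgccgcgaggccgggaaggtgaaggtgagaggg
In the MFN1 window the matches are 2 of the ETS core CCGGAAG, 1 CCAAT box (CCAAT) and 1 GC box (GGGCGG), none of which overlap. Neither the NRF1 half-site TGCGCA nor the TATA box TATAAA was matched there, and the MFN2 window matched none of the 5 motifs. The 300 bases are 57.0% G and C with 10 CpG in MFN1, against 71.3% with 37 CpG in MFN2. Of 35116 RefSeq promoter windows of this length, 10.3% hold CCGGAAG, 34.6% CCAAT, 45.0% GGGCGG, 8.24% TGCGCA and 11.5% TATAAA. Promoter windows were matched for 6 of the 8 genes. Those of OPA1, DNM1L, FIS1 and IMMT each held 1 TGCGCA, and IMMT and FIS1 held CCGGAAG, 2 and 1 times. The matches describe these letters and say nothing on binding in these cells.

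OPA1, the fusion GTPase of the inner membrane (chr3:193593208-193697811), was read by 3 probe sets, whose differences between ρ° and ρ+ in A549 varied. The representative, 212213_x_at, is of the x_at type that can bind other sequences as well, and the other OPA1 probe sets are not. It had 131.0, 126.2 and 92.5 in A549 ρ° cells, against 90.3, 101.8 and 169.9 in ρ+ cells. The groups overlapped, with the highest and the lowest of the 6 values both on ρ+ arrays, and the log2 change was -0.01 (interval -0.64 to 0.62, limma adjusted p = 0.988). In 143BTK− it had 197.5, 249.2 and 386.5 in ρ° cells, against 248.3, 206.3 and 383.0 in ρ+ cells. Both C arrays were high there and the log2 change was again -0.01 (interval -0.75 to 0.72, adjusted p = 0.997). Without the ρ+ C array of the line, the change was 0.265 in A549 (limma adjusted p = 0.515) and 0.238 in 143BTK− (0.843).

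The second OPA1 probe set, 212214_at, differed more in A549. It had 89.0, 85.1 and 50.6 in ρ° cells, against 26.9, 32.6 and 69.8 in ρ+ cells. The ρ° A and ρ° B arrays were above all ρ+ arrays, but ρ° C was below ρ+ C, so the groups overlapped and the log2 change of 0.88 (SE 0.39, interval 0.02 to 1.75) did not pass (limma adjusted p = 0.175). Without the A549 ρ+ C array, one of those that stood apart, it was 1.29 and passed (adjusted p = 0.0290). In 143BTK− the same probe set had 171.1, 125.4 and 223.4 in ρ° cells, against 164.6, 147.0 and 206.7 in ρ+ cells, with a log2 change of -0.02 (interval -0.66 to 0.62). The third, 214306_at, had log2 changes of -0.25 in A549 and -0.11 in 143BTK−, and its groups overlapped in both lines.

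**Figure D2:**
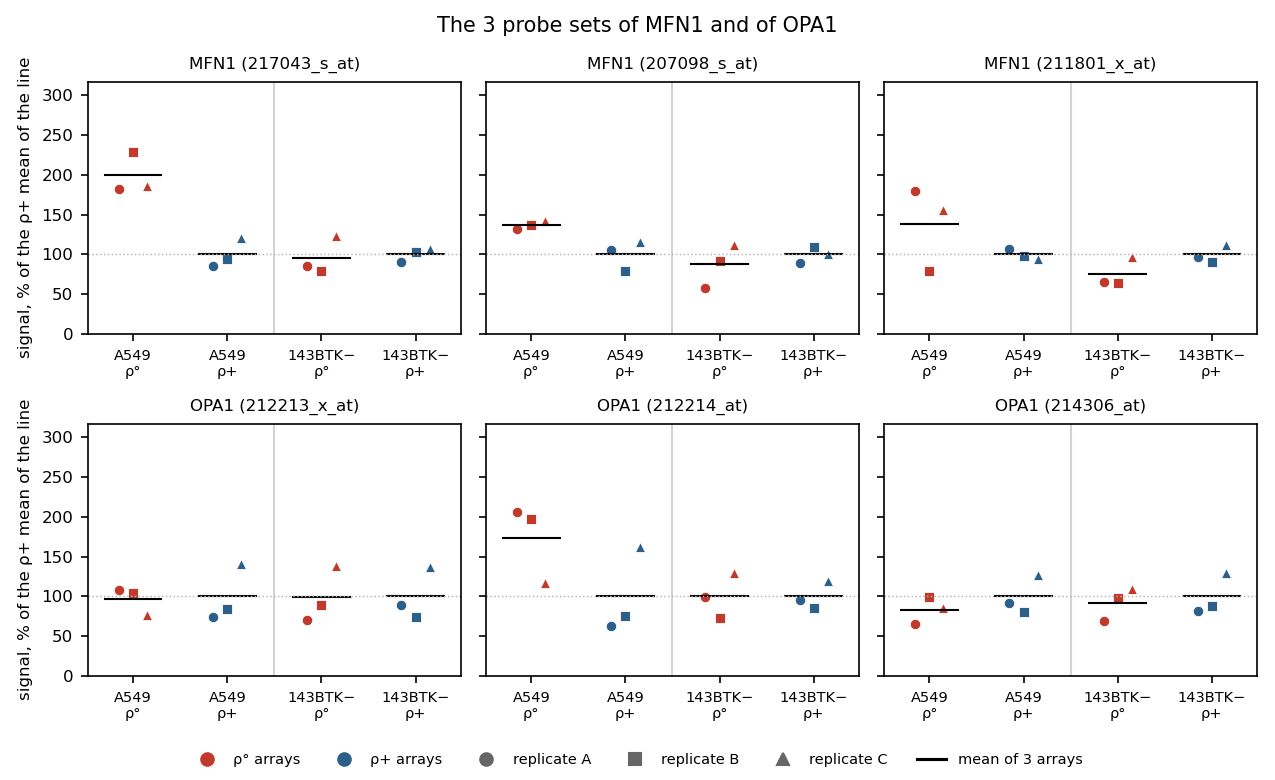
Signals of the 3 MFN1 probe sets (upper row) and the 3 OPA1 probe sets (lower row) on the 12 arrays, each in percent of the average ρ+ signal in its line (vertical axis, linear, dotted line at 100). Red points are ρ° and blue points ρ+ arrays, shapes are replicates A, B and C, and lines are means of 3 arrays. In A549 the ρ° arrays of 217043_s_at and 207098_s_at of MFN1 lie above all ρ+ arrays, whereas those of OPA1 overlap with ρ+ in all 3 probe sets.

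The 2 fission genes did not pass in either line. DNM1L, the GTPase that constricts mitochondria (chr12:32679301-32745650), had 197.1, 185.3 and 191.1 in A549 ρ° cells, against 175.3, 184.8 and 153.4 in ρ+ cells. The groups just missed each other, since ρ° B at 185.3 and ρ+ B at 184.8 were almost level, and the log2 change was 0.16 (SE 0.19, interval -0.26 to 0.59, limma adjusted p = 0.628). In 143BTK− it had 193.7, 239.2 and 171.7 in ρ° cells, against 151.1, 176.3 and 158.8 in ρ+ cells. Only ρ° C lay within the ρ+ range, and the log2 change was 0.30 (interval -0.23 to 0.84, adjusted p = 0.770). The mean change of both lines was 0.23 (interval -0.07 to 0.54, adjusted p = 0.380), an interval that reaches up to 1.45-fold. FIS1, an outer membrane protein that takes part in recruiting the fission machinery (chr7:101239472-101245081), had 466.6, 369.6 and 374.1 in A549 ρ° cells, against 480.3, 522.6 and 296.3 in ρ+ cells. The ρ° values fell inside the ρ+ range, with a log2 change of -0.07 (interval -0.59 to 0.46, limma adjusted p = 0.886). Kept probe sets of its chromosome had a median log2 change of -0.28 in A549. Only ρ+ C (296.3) lay below the ρ° values, and ρ+ A and ρ+ B lay above them all. In 143BTK− FIS1 had 357.6, 404.9 and 374.5 in ρ° cells, against 315.1, 326.4 and 446.6 in ρ+ cells. The ρ° values were again inside the ρ+ range, with a log2 change of 0.08 (interval -0.42 to 0.58, adjusted p = 0.946). Here only ρ+ C (446.6) lay above the ρ° values, and ρ+ A and ρ+ B lay below them all.

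**Figure D3:**
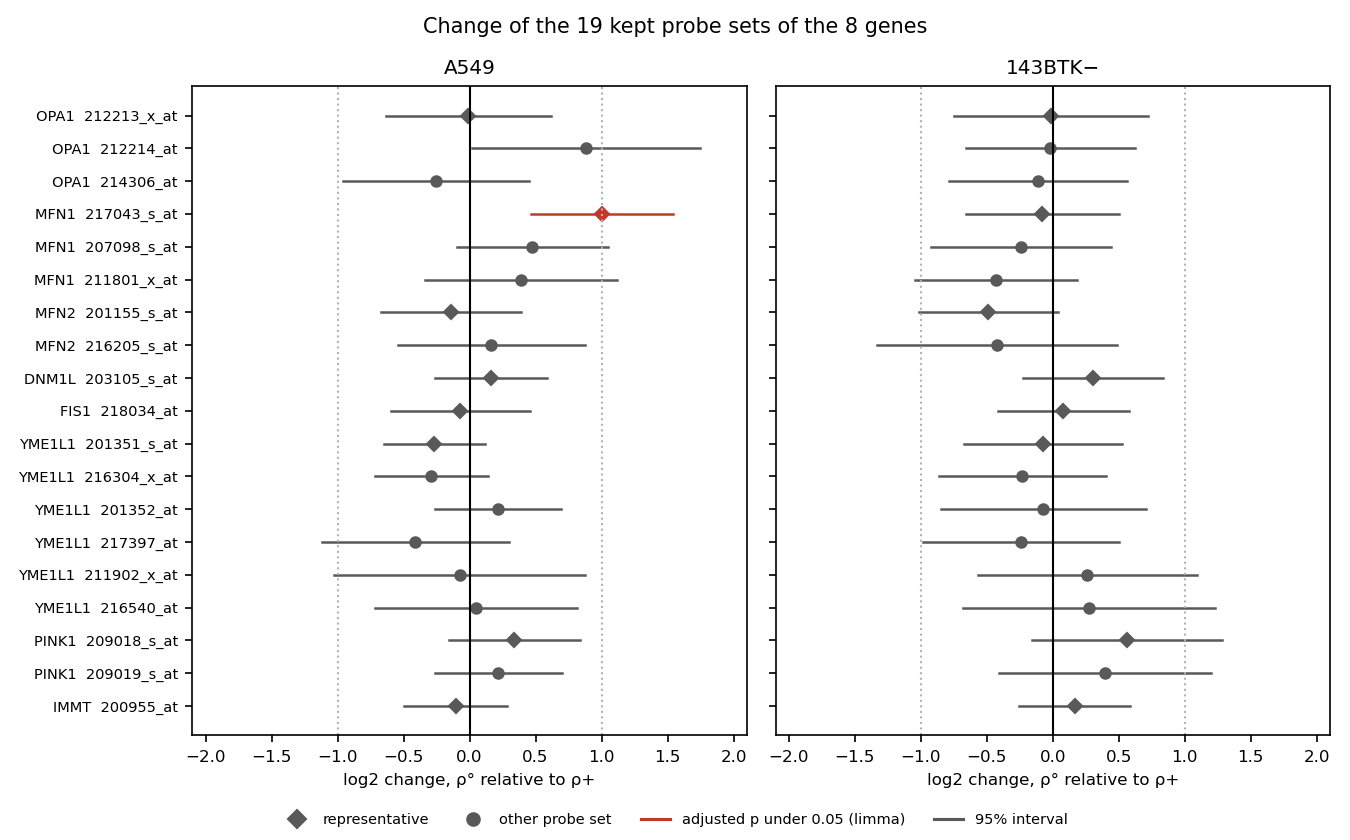
Log2 change of ρ° relative to ρ+ (horizontal axis) with its 95% interval from limma for the 19 kept probe sets of the 8 genes, in A549 (left) and 143BTK− (right). Diamonds represent the gene in counts, circles are its other probe sets, dotted lines mark a 2-fold change, and red marks an adjusted p under 0.05. MFN1 217043_s_at in A549, at 1.00, is the single red one of the 38 changes shown.

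Over the 19 kept probe sets, ρ° and ρ+ arrays of A549 did not overlap in 3, all higher in ρ° cells: MFN1 217043_s_at, MFN1 207098_s_at and DNM1L. That compares with 31.9% of all probe sets in A549, in either direction. In 143BTK− they did not overlap in 1, MFN2 201155_s_at, against 14.8% of all probe sets. Changes of the 19 in A549 were positive in 10 and negative in 9, and in 143BTK− positive in 7 and negative in 12.

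YME1L1, the protease that processes OPA1 (chr10:27110111-27154384), had 13 probe sets in the annotation. On every array 3 of them had signals between 217.2 and 644.6, and the other 10 stayed between 0.3 and 55.7, of which 7 fell below the filter. An accession was listed for 10 of the 13, and for only 1 (201352_at) was it a RefSeq accession of the gene. The 10 dim probe sets are reported as annotated, and whether they read the YME1L1 transcript was not tested. Of them, 3 are among the 19 kept probe sets. The representative, 201351_s_at, had 472.6, 379.0 and 420.0 in A549 ρ° cells, against 527.6, 529.7 and 469.6 in ρ+ cells. The ρ° arrays were the lower ones save that ρ° A just exceeded ρ+ C, and the log2 change was -0.27 (SE 0.17, interval -0.65 to 0.11, limma adjusted p = 0.351). In 143BTK− it had 454.4, 326.5 and 628.0 in ρ° cells, against 549.8, 449.4 and 441.6 in ρ+ cells. The ρ° replicates spanned the whole ρ+ range there, and the log2 change was -0.08 (interval -0.67 to 0.52, adjusted p = 0.962). Of the other bright probe sets, 216304_x_at, also of the x_at type, changed by -0.29 in A549 and -0.23 in 143BTK− on the log2 scale. Probe set 201352_at changed by 0.22 and -0.07, and neither was called. Thus in A549 the probe set tied to the RefSeq transcript and the representative had opposite signs, each with an interval that included 0.

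**Figure D4:**
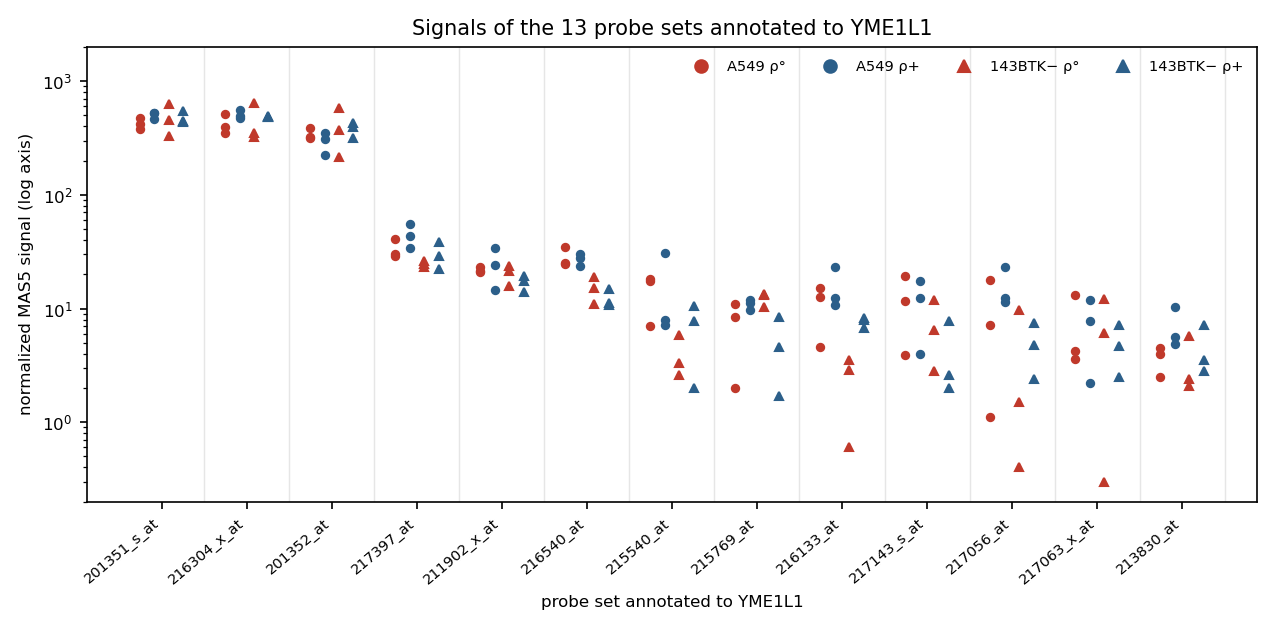
Normalized MAS5 signals (vertical axis, log scale) of the 13 probe sets annotated to YME1L1 (horizontal axis), with 1 point for each of the 12 arrays. Circles are A549 and triangles 143BTK− arrays, red ρ° and blue ρ+. The 3 probe sets at the left lie at 217.2 or above, and the other 10 at 55.7 or below.

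PINK1, the kinase that builds up on depolarised mitochondria (chr1:20633458-20651511), had higher means in ρ° cells of both lines. Its representative probe set 209018_s_at had 130.5, 175.3 and 145.6 in A549 ρ° cells, against 99.3, 135.4 and 122.2 in ρ+ cells. These overlapped by 1 pair of arrays, ρ° A under ρ+ B, and the log2 change was 0.34 (SE 0.22, interval -0.16 to 0.84, limma adjusted p = 0.364). In 143BTK− it had 83.2, 123.7 and 132.1 in ρ° cells, against 63.7, 61.1 and 108.4 in ρ+ cells. The ρ+ C array alone reached into the ρ° range, and the log2 change was 0.56 (SE 0.32, interval -0.16 to 1.29, adjusted p = 0.684). Over both lines the mean change was 0.45 (SE 0.20, interval 0.03 to 0.87), and with adjustment over 12139 probe sets it did not pass (adjusted p = 0.213). The second PINK1 probe set, 209019_s_at, had log2 changes of 0.22 in A549 and 0.40 in 143BTK−, with a mean change of 0.31 (interval -0.15 to 0.76, adjusted p = 0.448).

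IMMT, the cristae junction protein (chr2:86143936-86195462), had the smallest standard error of the 8 genes in 143BTK−, in the mean change and in the difference. It had 450.3, 381.7 and 464.9 in A549 ρ° cells, against 413.0, 482.1 and 498.3 in ρ+ cells. The groups overlapped, with a log2 change of -0.10 (SE 0.18, interval -0.50 to 0.29, limma adjusted p = 0.749). In 143BTK− it had 589.9, 617.4 and 509.8 in ρ° cells, against 504.0, 506.2 and 516.0 in ρ+ cells. The ρ+ arrays lay very close together and ρ° C fell among them, and the log2 change was 0.17 (SE 0.19, interval -0.25 to 0.58, adjusted p = 0.841). The mean change of 0.03 (SE 0.12) had an interval from -0.23 to 0.29, that is from 0.854-fold to 1.22-fold.

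Once the mean of each line was taken off, the representative probe sets of the 8 genes showed no shared course over the 12 arrays. Pearson's r of the 28 gene pairs ran from -0.75 (MFN2 with DNM1L) to 0.51 (OPA1 with PINK1), with a median of -0.04, and was positive in 14 and negative in 14. All points share the same 12 hybridisations, and the values are a description. Probe sets of one gene were related to different degrees. Among the bright YME1L1 probe sets, r of 201351_s_at was 0.87 with 216304_x_at and 0.52 with 201352_at. The latter was -0.70 within A549 and 0.91 within 143BTK−. For the PINK1 pair r was 0.71. MFN1 217043_s_at had 0.70 with 207098_s_at and 0.34 with 211801_x_at. The OPA1 representative had 0.65 and 0.68 with its other probe sets. For the MFN2 pair r was -0.06, with -0.90 within A549 and 0.40 within 143BTK−. Of 7489 other genes, the one whose course over the 12 arrays was most like that of MFN1 was ASPH, an aspartyl hydroxylase of the endoplasmic reticulum (r = 0.96). Since ASPH was picked for its likeness to MFN1 on these arrays, its log2 changes of 1.43 in A549 and -0.33 in 143BTK− follow from the choice and are given with no test. The most similar gene was CBR4 for OPA1 (r = 0.93), UBE2A for MFN2 (0.93), STXBP2 for DNM1L (0.93), RHOBTB3 for FIS1 (0.90), AGPAT5 for YME1L1 (0.94), UBL3 for PINK1 (0.91) and EXOSC8 for IMMT (0.87). Each r is the highest of 7489 for its gene.

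A further 61 genes of the same processes were listed by role, and 43 of them were measured in A549 and 44 in 143BTK−. In A549, 2 rose (OPTN and ATP5MG) and 0 fell in limma, where 10.9% of all probe sets were called, so the list was not above the background. In 143BTK−, in the mean change and in the difference none was called by its representative probe set. At an unadjusted p under 0.05 there were 8 genes in A549 (27.4% of all probe sets), 6 in 143BTK− (8.39%), 10 in the mean change (20.6%) and 5 in the difference (17.3%). Their median log2 change was 0.04 in A549 and 0.03 in 143BTK−, where all probe sets had medians of 0.00 in both. Among 12 measured fusion, fission and positioning factors in A549 none was called, with log2 changes from -0.85 to 0.66 and 3 at an unadjusted p under 0.05. None of the 8 genes of OPA1 processing and inner membrane quality control was called in A549 (from -0.73 to 0.63, 3 unadjusted). In 143BTK− these lists had 13 and 8 measured genes, none called, and 0 and 2 unadjusted.

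Of the 12 measured genes for MICOS, cristae and cardiolipin, 1 was called in A549, near the 10.9% of all probe sets, and log2 changes ran from -0.39 to 0.57. In 143BTK− 0 were called, and 2 were at an unadjusted p under 0.05, as were 8.39% of all probe sets. The one in A549 was ATP5MG, subunit g of the ATP synthase, whose dimers bend the cristae membrane. Its representative probe set 210453_x_at had 2527.8, 2595.6 and 2587.6 in A549 ρ° cells, against 1709.8, 2040.2 and 1855.0 in ρ+ cells, with no overlap. The log2 change was 0.46 (SE 0.13, limma adjusted p = 0.0489), and it was no longer called when any 1 of the 6 arrays was left out (adjusted p from 0.0546 to 0.143). The other 3 probe sets of ATP5MG in A549 had log2 changes of 0.75 (207573_x_at, adjusted p = 0.0187), 0.66 (208745_at, 0.0781) and 0.50 (208746_x_at, 0.0664), and none of the 4 had overlapping groups. In 143BTK− the 3 x_at probe sets, of the type that can bind other sequences, lay between -0.07 and -0.04. The only one of another type, 208745_at, was at 0.46. The mean change of 208745_at over both lines, 0.56, passed (adjusted p = 0.0462) but reached 0.0501 to 0.117 when any of the 12 arrays was left out.

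Of the 11 measured mitophagy genes, 1 was called in A549, again near the 10.9% of all probe sets. That was OPTN, optineurin, an adaptor that links ubiquitin on damaged mitochondria to the autophagosome. Its probe set 202074_s_at had 342.7, 415.5 and 291.5 in A549 ρ° cells, against 211.3, 194.7 and 183.5 in ρ+ cells. All ρ° arrays were above all ρ+ arrays, with a log2 change of 0.82 (SE 0.20, limma adjusted p = 0.0284). The second OPTN probe set, 202073_at, had overlapping groups in A549 and was not called (0.60, adjusted p = 0.211). The call of 202074_s_at was lost without ρ° A (adjusted p = 0.104), ρ° B (0.112), ρ+ A (0.0505) or ρ+ B (0.101). In 143BTK− OPTN had 120.3, 220.7 and 88.2 in ρ° cells, against 61.6, 73.9 and 100.2 in ρ+ cells, which overlapped, and the log2 change of 0.79 did not pass (SE 0.37, adjusted p = 0.621). The median log2 change of the 11 genes was 0.19 in A549 and 0.43 in 143BTK−, where the median of all probe sets was 0.00, and in 143BTK− none was called and 2 were at an unadjusted p under 0.05 (8.39% of all probe sets).

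**Figure D5:**
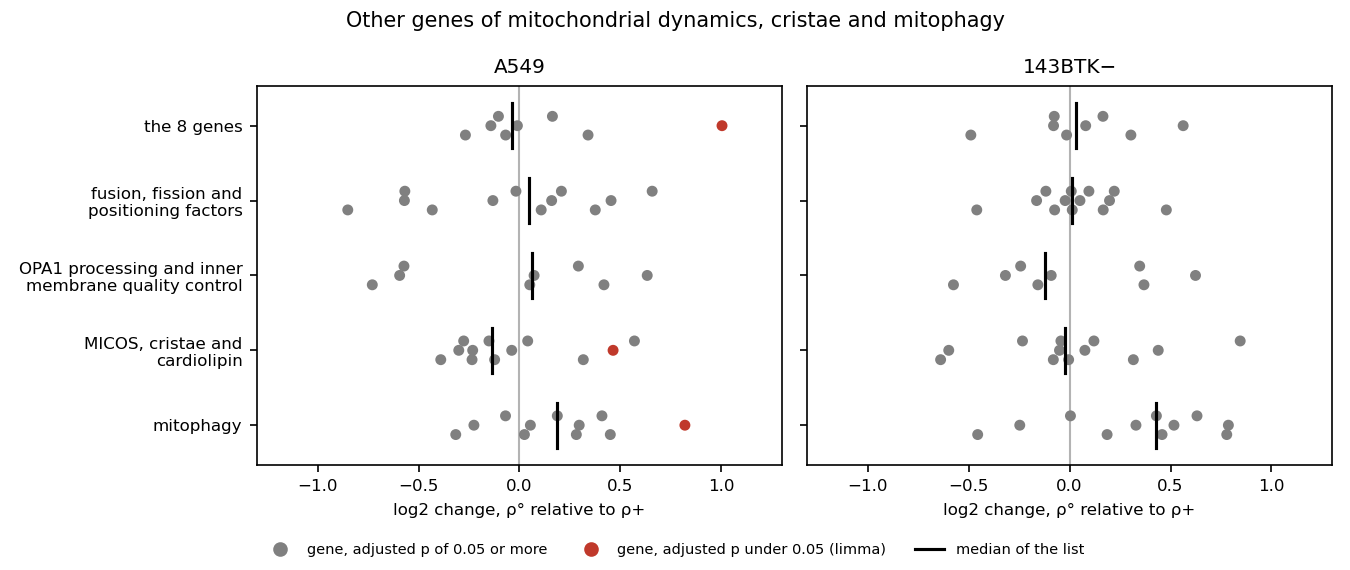
Log2 change of ρ° relative to ρ+ (horizontal axis) for the 8 genes and for 4 lists of related genes (rows), in A549 (left) and 143BTK− (right). Each point is 1 gene by its representative probe set, black bars are medians, and red marks an adjusted p under 0.05 in limma. The red points are MFN1 (1.00), ATP5MG (0.46) and OPTN (0.82), all in A549, and no point of 143BTK− is red.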

How the data were processed

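Each array (HG-U133A, 22283 probe sets) was hybridised with a separate extraction of 12 µg total RNA, and the methods name the 3 of a group biological replicates. The deposited intensity per probe set is a linear MAS5 signal, which the authors quantile-normalized separately for each line. All 12 columns were used, and arrays were grouped by their labels. The authors removed probe sets called Absent throughout a line; here the same number of probe sets, those with the highest mean log2 signal, was kept in each line (13096 in A549, 14012 in 143BTK−, 12139 in both), with a lowest mean signal of 19.1 and 12.6. Signals were compared on the log2 scale with limma 3.58.1 in R 4.3.3 (lmFit, eBayes with an intensity trend, two-sided, Benjamini-Hochberg, threshold 0.05), where the authors used a power law global error model. Fits used the 6 arrays of a line, or all 12 arrays in 4 groups for the mean change and the difference (A549 minus 143BTK−). The scripts recovered known changes in simulated data. The share recovered is not given here, so no sensitivity for changes as small as most of those above follows from that run.

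The 8 genes and the lists were chosen with earlier results of these data known. Named were every probe set of the 8 genes, listed genes with a probe set past the threshold in any test, and for each of the 8 the gene with the highest r. Gene names came from the platform annotation, and places and promoters from RefSeq (GRCh38.p14). Alternatives were quantile normalization over 12 arrays, an offset of 16 or 64, a filter at a mean signal of 100 or none, a fit without the trend, a block for the replicate letter, centring by chromosome, the second brightest probe set, and fits without single arrays. The number of arrays limits the precision. Plots used matplotlib 3.10.9 (Python 3.11.15).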

Additional observations from a re-analysis of the deposited data

How the results depend on the processing

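The number of the 8 genes called in A549 was 1, and it was 0 with a mean signal of at least 100 (MFN1 was then not among the 7 measured), 0 after centring on the chromosome median and 0 with the second brightest probe set. It was 0 to 1 over the fits without 1 array. In 143BTK−, in the mean change and in the difference it was 0 under every alternative run. Whether the replicate letters pair the samples is not settled by these arrays. Deviations of arrays with the same letter correlated at 0.05 to 0.11 in A549, and those with different letters at -0.11 to 0.02. In 143BTK− the ranges were -0.11 to 0.36 with the same letter and -0.47 to 0.39 with different letters. With the letter as a replicate block, 1 gene was called in A549 (MFN1, adjusted p = 0.0366) and 0 in the other tests, and calls over all probe sets went to 1442 in A549, 1 in 143BTK−, 345 in the mean change and 187 in the difference, against 1422, 0, 449 and 237 without it. Of the 626 values of the 8 genes recomputed under the alternatives, 619 stayed on their side of the threshold, 5 lost a call (all MFN1 in A549) and 2 gained one (OPA1 212214_at in A549 without the ρ+ C array, alone or with that of 143BTK−). No called change turned its sign, and 42 uncalled ones did. Calls over all probe sets moved by more than 1.5 times without the intensity trend (770 in A549, 233 in the mean change, 130 in the difference), after centring (265 in the mean change), and without 1 array (432 to 1915 in A549, 100 to 550 in the mean change, 61 to 310 in the difference). ATP5MG 207573_x_at lost its A549 call without the trend (adjusted p = 0.0837) and after centring (0.0626), and OPTN without the trend (0.0670). With 3 arrays a group, the median standard error of the log2 change of the 8 genes was 0.23 in A549 and 0.25 in 143BTK−.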
